A study of Homo sapiens with 12 samples.

Results

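The 8 genes described here govern the breakdown of stored fat and the handling of the glycerol it frees: LPL, PNPLA2, ABHD5, G0S2, LIPE, MGLL, AQP7 and GPD1. They were chosen by name, with earlier results of these data in view, and are 8 of the 48162 genes in the deposited count table. The material was bulk RNA of spheroids made from Caco-2, a human cell line established from a colorectal tumour and used as a model of enterocytes. After passage 26 the cells formed spheroids over 5 days in Matrigel, with 20% serum, and were exposed for 4 hours. The groups were methotrexate (an antifolate drug), methotrexate with lactoferrin (an iron-binding milk glycoprotein), lactoferrin alone, and carrier fluid as control, with 3 libraries each. Doses are not in the labels, and they do not say whether replicates were grown apart, so p-values measure the spread between these libraries, which may be technical.

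Triglyceride stored in lipid droplets is cleaved stepwise: PNPLA2 (adipose triglyceride lipase) removes the first fatty acid, LIPE (hormone-sensitive lipase) the next and MGLL (monoglyceride lipase) the last, which leaves glycerol. ABHD5 activates PNPLA2 and G0S2 inhibits it. LPL is secreted and works outside the cell, on triglyceride carried in lipoproteins, while AQP7 lets glycerol cross the membrane and GPD1 links glycerol phosphate to glycolysis. These genes are best known from adipose tissue. Enterocytes also store and hydrolyse triglyceride during fat absorption.

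All 8 genes were far higher in the methotrexate libraries than in any other library, and the levels of 7 of them in spheroids given methotrexate with lactoferrin lay close to those in control. Together they made up 0.904, 0.854 and 0.851% of the counts in the methotrexate libraries. Their share was 0.0182, 0.0186 and 0.0181% with both agents, 0.0183, 0.0211 and 0.0201% with lactoferrin, and 0.0187, 0.0194 and 0.0171% in control. Because the genes were named with the methotrexate libraries in view, no test of the 8 genes is given in comparisons that use these libraries; calls over other genes are given there as background.

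The methotrexate libraries stood apart in other ways. Their totals were 47459811 to 60591667 counts, against 18714054 to 23859094 in the other 9 libraries. Mitochondrial genes took 6.67 to 7.54% of their counts, against 2.56 to 2.73% with both agents, 2.43 to 2.98% with lactoferrin and 2 to 3.34% in control. Intestinal epithelial markers were present in every group, with summed levels of 3320 to 3540 CPM (counts scaled to the library total) with methotrexate, 6740 to 6990 CPM with both agents, 6580 to 6920 CPM with lactoferrin and 6920 to 7390 CPM in control. The 11 adipocyte markers summed to 12300 to 12700 CPM with methotrexate, 54.9 to 63.4 CPM with both agents, 59.9 to 61.1 CPM with lactoferrin and 57.3 to 65.2 CPM in control, and none of them was at 0 in the methotrexate libraries. The 12 fibroblast markers summed to 10100 to 11600 CPM with methotrexate and to 924 to 1090 CPM in the other groups. Most of the latter was FBLN1, at means of 884 CPM with both agents, 874 CPM with lactoferrin and 877 CPM in control. Bulk RNA does not show which cells a transcript came from, and the labels name no source other than Caco-2 spheroids. More cells of a type and more RNA per cell cannot be told apart either. The part of these marker levels in the results below was not tested. CPM here are scaled by TMM, a method that sets libraries level on the bulk of their genes.

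**Figure D1:**
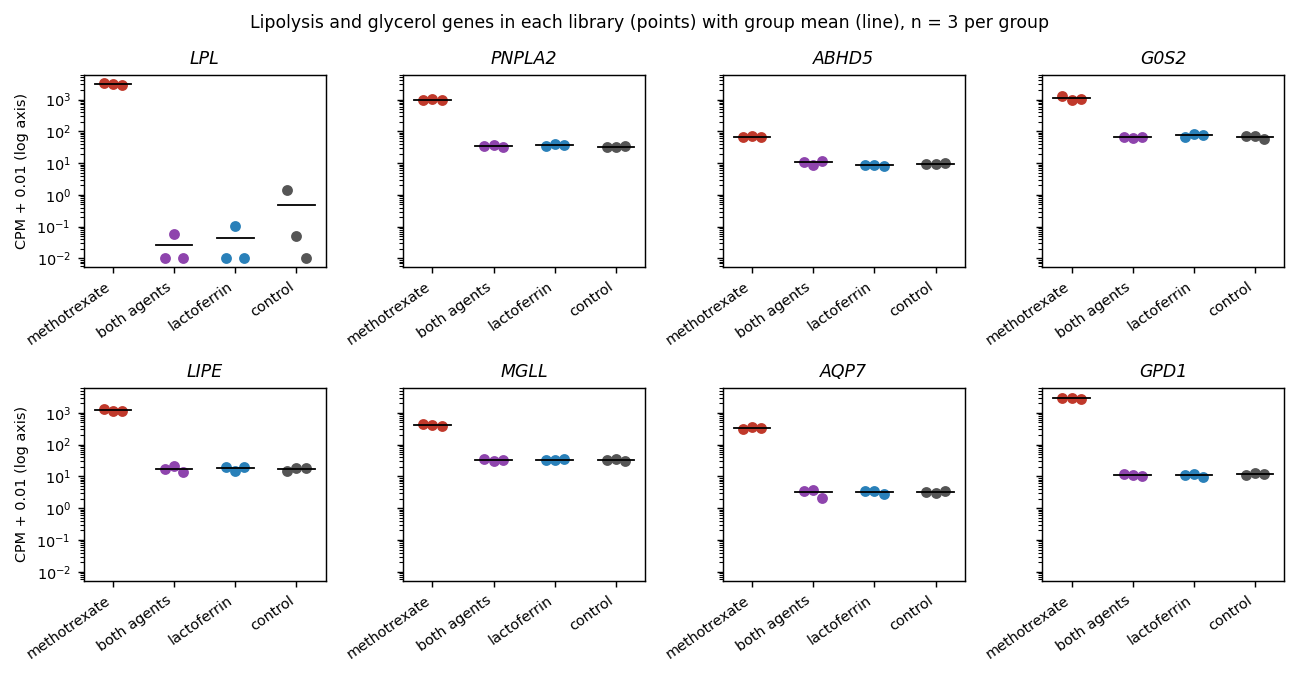
Level of each gene in every library, as TMM-scaled CPM plus 0.01 on a log axis; points are libraries and lines are group means, with 3 libraries in a group. The 3 methotrexate libraries lie above the other 9 for every gene, and control replicate 1 is the only other library in which LPL passes 1 CPM.

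LPL (ENSG00000175445; hg19 chr8:19759228-19824769, plus strand) went furthest. It was at 3250, 3070 and 2960 CPM in the methotrexate libraries. It was at 0, 0.0485 and 0 CPM with both agents, at 0, 0.0983 and 0 CPM with lactoferrin, and at 1.39, 0.0402 and 0 CPM in control. The methotrexate libraries held 439170 LPL counts in all, against 1 with both agents, 2 with lactoferrin and 30 in control. Of the 30 control counts, 29 came from replicate 1. LPL was thus abundant in 1 group and at or under the floor of 3 counts in 8 of the other 9 libraries, and it passed the filter on low counts only through the methotrexate libraries. The count ratio of methotrexate to control was 7130 (95% interval 4990 to 10600, counting error only). Without control replicate 1 it was 150000, with an interval of 26800 to 5910000. The ratio of both agents to methotrexate was 4.91e-06 (1.24e-07 to 2.74e-05). These intervals pool the libraries of a group and leave out the spread between them, and they are not used as a test.

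Control replicate 1 also held traces of some other transcripts that were abundant with methotrexate. With at least 1000 CPM in the methotrexate libraries and at most 8 counts over the other 8 libraries, limits set after these data were seen, there were 3 genes: FABP4 (a fatty acid carrier), LPL and ADIPOQ (the hormone adiponectin). Control replicate 1 held 37, 29 and 5 counts of them, against 7, 4 and 2 over those other 8 libraries. These are 0.036% of the methotrexate level for FABP4, 0.0449% for LPL and 0.0154% for ADIPOQ. The limits leave out abundant transcripts with more counts in those other 8 libraries. Of these, PLIN4, a lipid droplet coat protein, held 25, 14 and 10 counts in control replicates 1, 2 and 3. The collagen COL3A1, at 3780 CPM with methotrexate, spanned 1.31 to 1.63 CPM over the control libraries.

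PNPLA2 (ENSG00000177666; hg19 chr11:818902-825573, plus strand), which opens the cascade, was at 966, 1010 and 944 CPM in the methotrexate libraries. It was at 34.2, 37.5 and 32.9 CPM with both agents, at 35.8, 38.8 and 36.8 CPM with lactoferrin, and at 32.5, 33.1 and 33.9 CPM in control. The groups other than methotrexate spanned a narrow range. On the log2 scale, PNPLA2 was higher by 4.88 ± 0.10 (SE) with methotrexate than in control.

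ABHD5 (ENSG00000011198; hg19 chr3:43731605-43775863, plus strand), the activator of PNPLA2, differed least. It was at 66, 70.4 and 68.3 CPM with methotrexate, at 10.5, 8.88 and 12 CPM with both agents, at 8.66, 8.5 and 8.12 CPM with lactoferrin, and at 9.64, 9.32 and 9.93 CPM in control. Its log2 difference between methotrexate and control was 2.82 ± 0.12. ABHD5 overlaps ANO10 on the opposite strand, which had 11755 counts with methotrexate against 9747 for ABHD5, and 1859 in control against 668 for ABHD5. The sources used here do not state strandedness, so counts of ABHD5 may include fragments of ANO10.

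G0S2 (ENSG00000123689; hg19 chr1:209848765-209849733, plus strand), the inhibitor of PNPLA2, was at 1250, 957 and 1050 CPM with methotrexate. It was at 64.5, 63.4 and 64.6 CPM with both agents, at 64.1, 85.4 and 77.7 CPM with lactoferrin, and at 73.3, 72.8 and 59.2 CPM in control. Its methotrexate libraries were spread by an SD of 150 CPM around a mean of 1090 CPM, and the groups other than methotrexate overlapped. Its log2 difference between methotrexate and control was 3.99 ± 0.14.

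LIPE (ENSG00000079435; hg19 chr19:42905659-42931578, minus strand) was at 1300, 1160 and 1110 CPM with methotrexate. It was at 17.3, 21.4 and 13.6 CPM with both agents, at 19.9, 15.1 and 19.6 CPM with lactoferrin, and at 15.3, 18.8 and 18.8 CPM in control. The groups other than methotrexate overlapped, and the log2 difference between methotrexate and control was 6.07 ± 0.17. MGLL (ENSG00000074416; hg19 chr3:127407909-127542051, minus strand), the last lipase of the cascade, was at 434, 410 and 399 CPM with methotrexate. It was at 34.1, 31.2 and 31.8 CPM with both agents, at 33.2, 31.7 and 35.9 CPM with lactoferrin, and at 32.2, 35.7 and 30.9 CPM in control. Again the groups other than methotrexate overlapped, and the log2 difference between methotrexate and control was 3.65 ± 0.10. Antisense genes overlap LIPE and G0S2, with 359 and 342 counts in the methotrexate libraries against 168347 for LIPE and 153176 for G0S2.

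AQP7 (ENSG00000165269; hg19 chr9:33384765-33402643, minus strand), the glycerol channel, was at 318, 363 and 333 CPM with methotrexate. It was at 3.57, 3.83 and 2.15 CPM with both agents, at 3.41, 3.49 and 2.74 CPM with lactoferrin, and at 3.21, 2.97 and 3.47 CPM in control. The log2 difference between methotrexate and control was 6.72 ± 0.17. AQP7 has 4 pseudogenes in the table, which held 2432 counts in the methotrexate libraries, or 5.02% of the AQP7 counts there, and 3 counts in the other 9 libraries, so part of its count may be shared with them.

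GPD1 (ENSG00000167588; hg19 chr12:50497602-50505102, plus strand), the cytosolic glycerol phosphate dehydrogenase, was at 3000, 2990 and 2770 CPM with methotrexate. It was at 11.7, 10.7 and 10.6 CPM with both agents, at 10.7, 11.8 and 9.69 CPM with lactoferrin, and at 11.1, 13.1 and 12.2 CPM in control. Its log2 difference between methotrexate and control, 7.91 ± 0.12, was next to that of LPL, whose fitted value was 12.77 ± 0.49, and 16.92 without control replicate 1. GPD1 and LPL reached almost the same CPM in the methotrexate libraries, while in control GPD1 was clearly detected and LPL barely so.

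Promoters are shown for 4 of the genes that were high together in the methotrexate libraries, to let their sequences be read side by side. RefSeq promoters on GRCh38.p14, from 250 bases before to 50 bases after each start, matched 5 of the 8 genes, in 8 windows; GPD1, MGLL and LPL are named only. Capitals mark matches, on either strand, to AGGTCA (the core recognised by nuclear receptors), to the TATA box (TATAAA), to the CCAAT box (CCAAT), to the GC box (GGGCGG), to the E-box (CACGTG) or to the C/EBP core (TTGCNNAA).
PNPLA2, chr11:818664-818963, plus strand: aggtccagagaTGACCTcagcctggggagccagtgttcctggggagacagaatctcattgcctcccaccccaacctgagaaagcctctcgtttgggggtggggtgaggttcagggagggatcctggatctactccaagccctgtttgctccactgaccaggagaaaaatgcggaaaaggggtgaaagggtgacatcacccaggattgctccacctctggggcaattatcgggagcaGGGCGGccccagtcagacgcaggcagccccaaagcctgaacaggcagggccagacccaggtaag
LIPE, chr19:42423536-42423835, minus strand: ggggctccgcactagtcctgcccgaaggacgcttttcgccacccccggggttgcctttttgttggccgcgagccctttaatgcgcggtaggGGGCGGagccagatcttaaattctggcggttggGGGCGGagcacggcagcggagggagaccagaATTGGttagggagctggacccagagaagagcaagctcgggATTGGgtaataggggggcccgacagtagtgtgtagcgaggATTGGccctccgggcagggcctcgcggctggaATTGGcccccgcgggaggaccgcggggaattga
AQP7, chr9:33402519-33402818, minus strand: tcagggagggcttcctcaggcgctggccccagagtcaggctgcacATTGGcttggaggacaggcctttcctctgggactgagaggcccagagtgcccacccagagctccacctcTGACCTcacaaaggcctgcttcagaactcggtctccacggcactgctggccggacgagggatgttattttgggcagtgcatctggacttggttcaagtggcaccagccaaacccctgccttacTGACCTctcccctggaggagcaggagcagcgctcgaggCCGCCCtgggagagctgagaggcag
G0S2, chr1:209675162-209675461, plus strand: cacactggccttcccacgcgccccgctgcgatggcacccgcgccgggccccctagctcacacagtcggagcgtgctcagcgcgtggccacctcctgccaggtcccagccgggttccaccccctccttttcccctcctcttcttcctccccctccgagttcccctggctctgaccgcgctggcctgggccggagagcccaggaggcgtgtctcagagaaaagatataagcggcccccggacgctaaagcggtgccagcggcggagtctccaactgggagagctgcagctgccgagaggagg

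The letters AGGTCA, the core of elements bound by receptors such as PPARG, was in the PNPLA2 window at position -239 and in the AQP7 window at -136 and -13, each time on the opposite strand, and in 13.8% of the 35116 promoter windows in the table. Its direct repeat with 1 base between, AGGTCANAGGTCA, was in no window of these genes and in 0.0228% of all. The LIPE window shown held CCAAT on the opposite strand at -95, -55, -15 and 17, and a further LIPE start and AQP7 held it as well, which makes 3 of the 8 windows, against 34.6% of all. GGGCGG was in 6 of the 8 windows, those of PNPLA2, AQP7 and ABHD5 and the LIPE window shown, and in 45.0% of all. The ABHD5 windows overlap one another, so the same letters are counted in more than 1 of them. None of the 8 windows held the TATA box, in 11.5% of all windows, the E-box, in 7.26%, or the C/EBP core, in 10.5%. The G0S2 window held none of the motifs searched. A match is a run of letters and not a measured binding site.

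Compared with control, the methotrexate libraries were all higher for 8 of 8 genes, which was so for 38.6% of the 16733 genes that passed the filter on low counts. By edgeR's quasi-likelihood test at an adjusted p under 0.05, 35.4% of all genes were higher with methotrexate and 29.1% lower. The median log2 difference was 5.47 over the 8 genes and 0.03 over all genes. Ranked by this difference among the 16733 genes, LPL was at place 31, GPD1 at 476, AQP7 at 694, LIPE at 789, PNPLA2 at 1050, G0S2 at 1293, MGLL at 1398 and ABHD5 at 1733. Nothing is read from these counts and ranks, since the same libraries were in view when the genes were named.

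The size of the difference depended on scaling. When libraries were instead set level on 13 intestinal epithelial markers, the median of all genes moved from 0.03 to 1.10, a shift of 1.07. The log2 differences were then 13.85 for LPL, 8.98 for GPD1, 7.79 for AQP7, 7.15 for LIPE, 5.95 for PNPLA2, 5.07 for G0S2, 4.73 for MGLL and 3.90 for ABHD5. A change of scaling moves all genes by nearly the same amount, so the order of the 8 genes could not change.

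The libraries with both agents also received methotrexate. They were all below the methotrexate libraries for 8 of 8 genes, against 36.3% of all genes, with log2 differences of -17.27 for LPL, -8.05 for GPD1, -6.73 for AQP7, -6.09 for LIPE, -4.80 for PNPLA2, -4.08 for G0S2, -3.68 for MGLL and -2.70 for ABHD5. The methotrexate libraries also differed from the others in depth and marker levels, and the part of the drug in these differences was not tested. The log2 difference of methotrexate from control exceeded that of both agents from lactoferrin by 2.51 ± 0.17 (ABHD5) to 7.87 ± 0.15 (GPD1), apart from LPL. The median of this excess over all genes was 0.04. For LPL the value was 13.70 ± 5.09, and 10.60 to 17.85 when each library was left out, so it is poorly determined.

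The comparisons that leave out the methotrexate libraries were tested. With both agents against control, none of the 7 genes that passed the filter without the methotrexate libraries was called (adjusted p = 1 for each, edgeR; 0 of 7 at an unadjusted p under 0.05, and 0 by DESeq2), and 0.0299% of all genes were. PNPLA2 differed by 0.07 on the log2 scale (95% interval -0.11 to 0.25), ABHD5 by 0.12 (-0.13 to 0.37), G0S2 by -0.09 (-0.36 to 0.17), LIPE by -0.02 (-0.34 to 0.30), MGLL by -0.03 (-0.22 to 0.17), AQP7 by -0.02 (-0.40 to 0.37) and GPD1 by -0.14 (-0.36 to 0.07). The intervals of these 7 genes reached from -0.40 to 0.37, while their differences between methotrexate and control began at 2.82. LPL, the gene left out here, is described by its counts alone. Its difference rested on control replicate 1: the count ratio of both agents to control was 0.035 (0.000858 to 0.211) with it and 0.735 (0.00936 to 57.7) without it. An edgeR fit with no low-count filter called LPL lower in this comparison and with lactoferrin against control, on the same control counts, of which 29 of 30 came from that library.

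With lactoferrin against control, none of the same 7 genes was called (adjusted p = 1 for each, edgeR; 0 of 7 at an unadjusted p under 0.05, and 0 by DESeq2), and 0% of all genes were. At an unadjusted p under 0.05 edgeR gave 628 genes over the whole table, and DESeq2 called 1 gene after adjustment. For LPL the count ratio of lactoferrin to control was 0.076 (0.0088 to 0.3) with control replicate 1 and 1.60 (0.083 to 94.1) without it. PNPLA2 differed by 0.16 (-0.02 to 0.35) and ABHD5 by -0.19 (-0.45 to 0.06). Neither interval excluded 0. G0S2 differed by 0.15 (-0.12 to 0.41), GPD1 by -0.18 (-0.40 to 0.04), LIPE by 0.04 (-0.28 to 0.37), MGLL by 0.03 (-0.17 to 0.23) and AQP7 by 0 (-0.39 to 0.39).

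With both agents against lactoferrin, again none of the 7 genes was called (adjusted p = 1 for each, edgeR; 1 of 7 at an unadjusted p under 0.05, and 0 by DESeq2), and 0.0179% of all genes were. ABHD5 differed by 0.31 ± 0.12 (0.06 to 0.57), with an unadjusted p of 0.0201 in edgeR, and failed the adjustment over all genes. Over the whole table, 564 of 16733 genes had an unadjusted p under 0.05 in edgeR in this comparison. G0S2 differed by -0.24 (-0.50 to 0.03), PNPLA2 by -0.09 (-0.27 to 0.09), LIPE by -0.06 (-0.39 to 0.26), MGLL by -0.05 (-0.25 to 0.14), GPD1 by 0.04 (-0.19 to 0.26) and AQP7 by -0.02 (-0.41 to 0.38). LPL, with 1 count against 2, had a ratio of 0.461 (0.00781 to 8.85) and could not be compared at this depth.

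**Figure D2:**
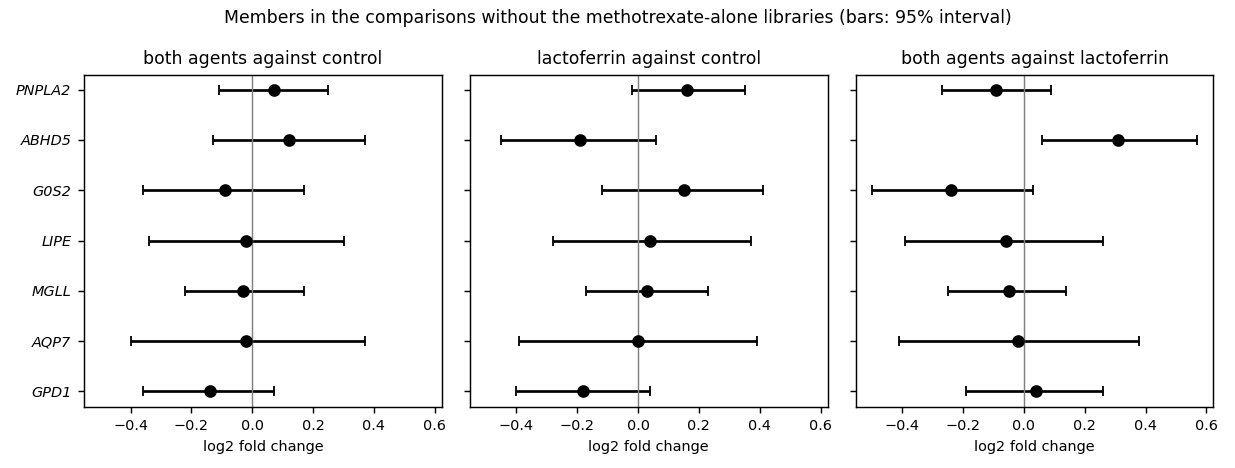
Log2 differences of 7 genes in the comparisons without the methotrexate libraries, with 95% intervals; each panel is 1 comparison and LPL, with 1 to 30 counts a group, is not drawn. All intervals span 0 apart from that of ABHD5 between both agents and lactoferrin, at 0.06 to 0.57.

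Levels of different genes were compared as CPM per kilobase of the gene length given in the table. In the methotrexate libraries the order was G0S2 at 1260 ± 173 CPM per kb (SD, n = 3), GPD1 at 947 ± 42.6, LPL at 804 ± 38.2, PNPLA2 at 357 ± 12.6, LIPE at 312 ± 25.2, AQP7 at 203 ± 13.7, MGLL at 83.9 ± 3.6 and ABHD5 at 40.4 ± 1.29 CPM per kb. No neighbours in this order overlapped. In control the order was G0S2 at 79.0 ± 9.25, PNPLA2 at 12.2 ± 0.249, MGLL at 6.67 ± 0.504, ABHD5 at 5.70 ± 0.18, LIPE at 4.63 ± 0.525, GPD1 at 3.94 ± 0.336, AQP7 at 1.93 ± 0.147 and LPL at 0.124 ± 0.206 CPM per kb, where LIPE and GPD1 overlapped. G0S2 therefore led in both groups, GPD1 and LPL were near the top in the methotrexate libraries and in the lower part of the order in control, and MGLL and ABHD5 were last with methotrexate.

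Among the 16733 genes, the level per kb placed G0S2 at 28, GPD1 at 43, LPL at 56 and PNPLA2 at 153 in the methotrexate libraries. In control G0S2 was at 787, PNPLA2 at 4909, GPD1 at 8678 and LPL at 15118. The length matters for the lower genes: with the longest GENCODE transcript, of 5366 bases for ABHD5 and 2879 for AQP7, their methotrexate levels were 12.7 and 117 CPM per kb, and ABHD5 moved from order 4 to order 6 in control.

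**Figure D3:**
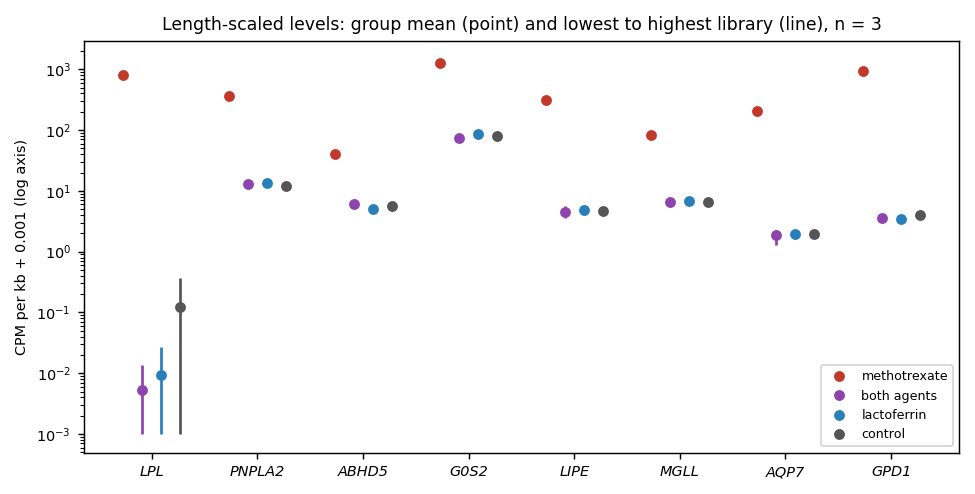
Length-scaled level of each gene in CPM per kb plus 0.001, on a log axis; points are group means and lines run from the lowest to the highest of 3 libraries. The methotrexate means run from 40.4 (ABHD5) to 1260 CPM per kb (G0S2), and the other groups lie together below them.

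Ratios between 2 genes within a library do not depend on how libraries are scaled, and the genes of the cascade did not keep the same ratios. G0S2 per PNPLA2, inhibitor to lipase, was 4.08, 2.98 and 3.51 counts per base with methotrexate, 5.94, 5.33 and 6.18 with both agents, 5.64, 6.93 and 6.65 with lactoferrin, and 7.10, 6.93 and 5.50 in control. ABHD5 per PNPLA2, activator to lipase, was 0.110, 0.112 and 0.117 with methotrexate, 0.495, 0.382 and 0.588 with both agents, 0.390, 0.353 and 0.356 with lactoferrin, and 0.478, 0.455 and 0.473 in control. Both partners of PNPLA2 were thus lower relative to it in the methotrexate libraries than in any other library. For ABHD5 the lactoferrin libraries also lay below the control ones, and how often other pairs of genes do so was not counted.

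The lipases shifted against each other too. LIPE per PNPLA2 was 0.959, 0.820 and 0.840 with methotrexate, 0.361, 0.407 and 0.296 with both agents, 0.398, 0.278 and 0.382 with lactoferrin, and 0.337, 0.407 and 0.397 in control. MGLL per PNPLA2 was 0.248, 0.223 and 0.233 with methotrexate, 0.550, 0.460 and 0.533 with both agents, 0.512, 0.451 and 0.539 with lactoferrin, and 0.546, 0.596 and 0.504 in control. LIPE was therefore higher and MGLL lower relative to PNPLA2 in the methotrexate libraries. GPD1 per AQP7, in the glycerol arm, was 5.10, 4.45 and 4.49 with methotrexate, 1.77, 1.51 and 2.67 with both agents, 1.70, 1.83 and 1.91 with lactoferrin, and 1.87, 2.39 and 1.91 in control. For all 5 ratios the methotrexate libraries did not overlap with any other group. This restates the unlike log2 differences of the paired genes, and the share among other pairs of genes was not counted.

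**Figure D4:**
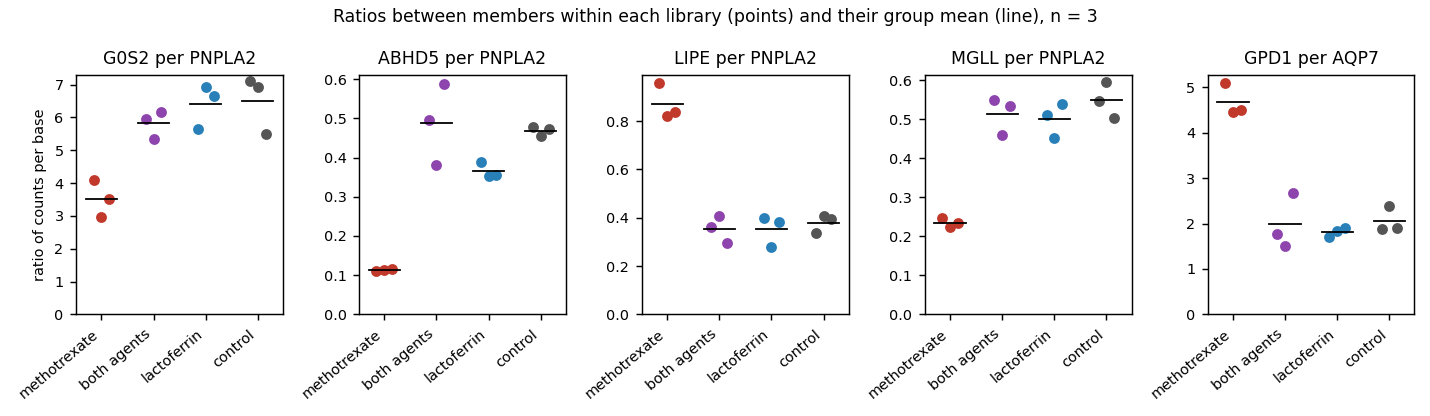
Ratio of counts per base between pairs of the genes within each library; points are libraries and lines group means, with 3 libraries in a group. With methotrexate LIPE per PNPLA2 is 0.820 to 0.959 and ABHD5 per PNPLA2 0.110 to 0.117, and in each panel the methotrexate points lie apart from the other 9.

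Other genes of the pathway were taken from 5 lists, chosen with earlier results of these data known. None of their members was called with both agents against control, lactoferrin against control or both agents against lactoferrin (edgeR, adjusted p under 0.05). Of 65 tested genes of these lists, 2 had an unadjusted p under 0.05 in each of these comparisons, and DESeq2 called 0. Over all 16733 genes, 591, 628 and 564 had such a p by edgeR in these comparisons, in the order just given. With methotrexate against control, 14 of 14 tested genes that control lipolysis, of 16 listed, were higher, with a median log2 difference of 3.56. Of these 14, 4, PLIN1 among them, passed the filter on low counts only through the methotrexate libraries, so that they had to differ. The background under TMM scaling was 35.4% of all genes higher and 29.1% lower, with a median of 0.03. Under epithelial scaling it was 80.6% higher and 0.0717% lower, with a median of 1.10, and the count in this list was again 14. PLIN1 (perilipin, the coat of lipid droplets) was at 831 ± 8.04 CPM with methotrexate and 0.123 ± 0.142 CPM in control (SD, n = 3), and PRKAR2B (a regulatory subunit of protein kinase A) at 185 ± 2.66 and 0.824 ± 0.289 CPM. The smallest differences in that list were 1.23 ± 0.12 for FITM2, a lipid droplet protein, and 1.44 ± 0.21 for ADORA1, an adenosine receptor. ADRB3, the adrenergic receptor that drives lipolysis in mouse adipocytes, had 0 counts in every library. PLIN1 and CIDEC also stand in the adipocyte marker list.

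Of 11 tested genes that are partners of LPL or lipases related to it, 5 were higher, 5 lower and 1 not called with methotrexate. Their median was 0.20, and among all genes 35.4% were higher and 29.1% lower. Under epithelial scaling 7 were higher and 0 lower, beside 80.6% and 0.0717% of all genes. ANGPTL8 passed the filter only through the methotrexate libraries. ANGPTL8 (listed as C19orf80) and ANGPTL4, secreted inhibitors of LPL, were higher by 8.26 ± 0.31 and 6.42 ± 0.29. ANGPTL4 was at 171 ± 66.4 CPM with methotrexate, 1.95 ± 0.27 CPM with both agents and 2.00 ± 0.617 CPM in control. APOA5, a plasma apolipoprotein that promotes LPL action, and LIPC, hepatic lipase, differed by -1.21 ± 0.27 and -0.98 ± 0.12 under TMM scaling, and neither was called lower under epithelial scaling. GPIHBP1, which anchors LPL to capillaries, had 4 counts in the methotrexate libraries and 1 in control. APOC2, the cofactor of LPL, was scarce in every group, at 0 counts with methotrexate, 3 with both agents, 0 with lactoferrin and 1 in control.

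Of 12 tested genes in a list of other lipid hydrolases, 5 were higher and 2 lower, with a median of 0.06. This was near the shares of all genes (35.4% and 29.1%, median 0.03). Epithelial scaling gave 10 and 0, beside 80.6% and 0.0717% of all genes and a shift of 1.07 in their median. PNPLA3 differed by 2.03 ± 0.11, DDHD1 by 1.52 ± 0.14, CES1 by -0.76 ± 0.09 and PNLIPRP2 by -0.89 ± 0.24 under TMM scaling. Of 13 tested genes of glycerol transport and glycerol phosphate, 7 were higher and 2 lower with a median of 0.51, beside 35.4% and 29.1% of all genes. Epithelial scaling gave 12 and 0, beside 80.6% and 0.0717% of all genes. PCK1, which feeds glyceroneogenesis, differed by 5.13 ± 0.19 and GPAM, the first acyltransferase of triglyceride synthesis, by 3.61 ± 0.12, against -0.50 ± 0.16 for the glycerol phosphate phosphatase PGP and -0.58 ± 0.63 for the aquaporin AQP10, which did not pass (adjusted p = 0.437, edgeR).

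Of 15 genes of triglyceride assembly, 7 were higher and 4 lower with a median of 0.07, near the shares of all genes (35.4% and 29.1%, median 0.03). Epithelial scaling gave 13 and 0, beside 80.6% and 0.0717% of all genes and a median of 1.10. ACSL1, which activates fatty acids, was at 1910 ± 56.5 CPM with methotrexate, 22.6 ± 0.823 CPM with both agents and 24.1 ± 0.762 CPM in control. MOGAT1, a monoacylglycerol acyltransferase, had 591 counts with methotrexate and 0 in control, and passed the filter only through the methotrexate libraries. MTTP and MOGAT3, known from the enterocyte route of fat export, differed by -0.97 ± 0.19 and -0.87 ± 0.13 under TMM scaling. Epithelial markers such as KRT8, a keratin, at 1110 CPM with methotrexate and 2330 CPM in control (-1.07), differed by a like amount.

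**Figure D5:**
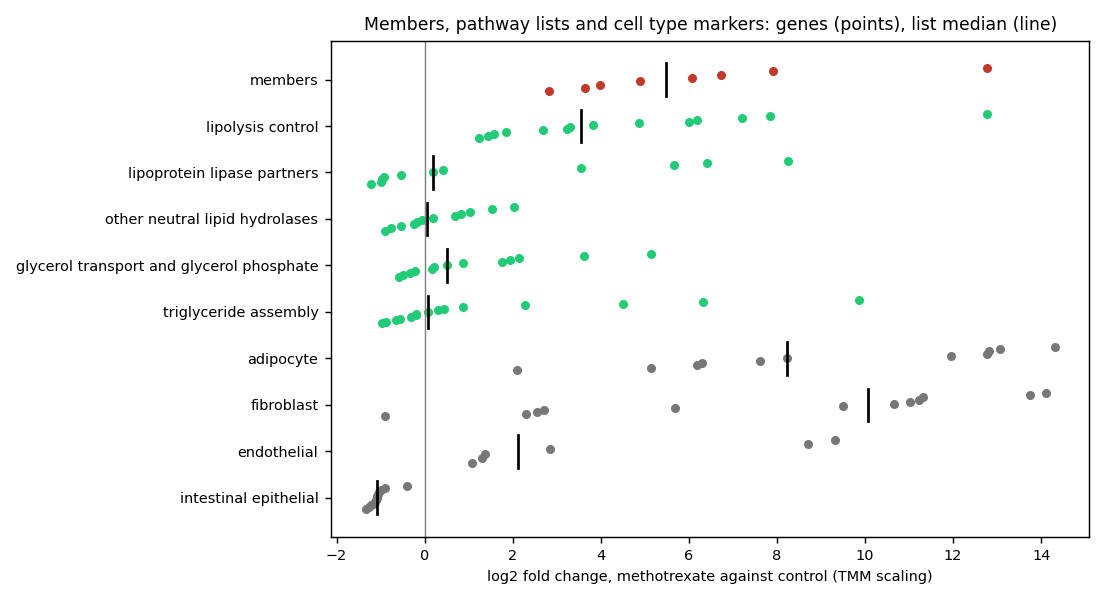
Log2 difference between methotrexate and control under TMM scaling for the 8 genes, the pathway lists and the cell type markers; points are genes and lines list medians, and values of genes with 0 control counts depend on the prior count. The 8 genes run from 2.82 to 12.77, and intestinal epithelial markers centre at -1.07.

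Markers of other cell types are given beside these levels. Of 11 adipocyte markers, 6 passed the filter on low counts only through the methotrexate libraries (ADIPOQ, CIDEA, FABP4, LEP, PLIN1 and TUSC5), so levels are given and no count of calls. FABP4 was at 4930 ± 466 CPM, PLIN4, a lipid droplet coat protein, at 2840 ± 382 CPM and ADIPOQ at 1560 ± 53.4 CPM in the methotrexate libraries. In control FABP4 was at 0.619 ± 1.00 CPM, PLIN4 at 0.728 ± 0.413 CPM and ADIPOQ at 0.0799 ± 0.138 CPM. Of 12 fibroblast markers 5 passed the filter only in that way, and the collagens COL3A1, COL1A1 and COL1A2 were at 3780, 2880 and 2000 CPM with methotrexate against 1.48, 56.0 and 1.25 CPM in control. FBLN1, in the same list, went the other way under TMM scaling, at 472 CPM with methotrexate and 877 CPM in control (-0.90 ± 0.10). Under epithelial scaling no marker of that list was called lower. Endothelial markers summed to 12.6 to 15.1 CPM with methotrexate and 3.01 to 3.79 CPM in control. Macrophage and other blood cell markers summed to 44.7 to 52.9 CPM and 45.4 to 49.2 CPM, with CD2, CD68 and MRC1 at 0 in every group. Most of this sum was CD14, CSF1R and LYZ, which went both ways under TMM scaling. CD14 was at 29.3 CPM with methotrexate and 13.5 CPM in control, CSF1R at 9.72 and 16.4 CPM, and LYZ at 7.48 and 17.3 CPM. C1QA had 80 counts with methotrexate and 1 in control. Skeletal muscle markers summed to 17.7 to 18.7 CPM and 19.6 to 25.4 CPM, with MYL1 at 0 in every group. Most of this sum was TTN, at 16.1 CPM with methotrexate and 21.8 CPM in control. TNNT3 and MYH2 went the other way, with 107 and 67 counts with methotrexate against 2 and 0 in control. Red cell markers reached at most 0.238 CPM with methotrexate and 0.338 CPM in control, with HBB at 0.

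The genes whose pattern over the 12 libraries was most like that of each gene were found among 12149 candidates by the root mean square difference of log2 CPM, centred on the control mean. For LPL these were FABP4 (0.508) and CD36 (0.707), a fatty acid transporter, and for LIPE SERPINF1 (0.180) and COL5A1 (0.211). For PNPLA2 they were SLC27A1 (0.172), a fatty acid transporter, and HIST2H2BE (0.178), for ABHD5 ARL6IP5 (0.112) and SDCBP (0.118), and for MGLL FADS1 (0.0924), a fatty acid desaturase, and RETSAT (0.121), a retinol saturase. For G0S2 they were VASN (0.157) and COL6A1 (0.178), a collagen chain. For AQP7 they were TBX18 and PTGFR and for GPD1 SGCD and TRPM8, at 7.04 to 19.4 CPM with methotrexate and 0 in control, so that their likeness depends on the prior count.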

How the data were processed

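RNA was sequenced from 12 libraries of Caco-2 spheroids. Per the labels, the authors deposited whole-number counts per gene; the submitters' processing notes name CASAVA, STAR, DESeq2 and hg19, without versions. The counting program, strandedness and whether a count is a read or a pair are not stated in the sources used here. Gene names, lengths and coordinates came from the table.

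The deposited counts were tested with edgeR 4.0.16 (R 4.3.3). The filter filterByExpr kept 16733 of 48162 genes (15233 were 0 throughout), all 8 genes described among them. Libraries were scaled by TMM, with factors of 0.852 to 0.8844 for methotrexate and 1.015 to 1.081 for the others. Quasi-likelihood tests with 1 mean per group used all 12 libraries, with Benjamini-Hochberg adjustment over all genes within a comparison and calls under 0.05. The biological coefficient of variation was 12.9%. The procedure was tested on simulated data. A floor of 3 counts was 0.0495 to 0.16 CPM before TMM scaling; counting intervals cover counting error only.

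The genes and lists were chosen with earlier results of these data known. Genes named from each pathway list are the 2 with the largest and the 2 with the smallest difference between methotrexate and control, plus any called in the comparisons without methotrexate. From marker lists, the 3 most abundant with methotrexate and any at 0 there qualified. Nearest genes are the 2 closest per gene whose average log2 CPM was 1 or more (prior count 2), passing over clone names and sex-chromosome markers. CIDEC, ADRB3, GPIHBP1, APOC2, CIDEA, LEP, TUSC5, FBLN1, C1QA and MYH2 were named outside this rule after their values were seen. Promoters are RefSeq's on GRCh38.p14. DESeq2 1.42.0, other scalings, no filter, a replicate term, thinning of the methotrexate libraries and leaving out libraries were alternatives.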

Additional observations from a re-analysis of the deposited data

How the results depend on the processing

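The 8 genes kept their direction between methotrexate and control, and did not overlap between those groups, under every alternative run: DESeq2, relative log expression factors, no filter, replicate block, epithelial scaling, thinning of the methotrexate libraries and each library left out. No called difference changed sign. Differences that were not called did: LPL was 0.58 with lactoferrin against control without control replicate 1, and ran from -3.11 to 2.17 with both agents against lactoferrin, and values of LIPE, MGLL, AQP7 and GPD1 near 0 crossed it. Counts of all genes called without the methotrexate libraries were small and moved. With both agents against control, 5 genes were called, against 2 at a change over 2-fold with adjusted p under 0.01, 15 by DESeq2, 38 with no filter, 3 with the replicate block, 0 in a fit without the methotrexate libraries and 0 to 8 when each library was left out. With both agents against lactoferrin, 3 were called, against 7 by DESeq2, 19 with no filter, 0 without the methotrexate libraries and 0 to 5 when each library was left out. With lactoferrin against control, 0 were called, against 1 by DESeq2, 17 with no filter and 0 whichever library was left out. With both agents against control, the count was 0 without control replicate 2, 3 without control replicate 1 or both-agents replicate 1, and 8 without both-agents replicate 3; with both agents against lactoferrin, it was 5 without both-agents replicate 3 and 0 without lactoferrin replicate 3. Of the 8 genes, 0 were called in these comparisons, except that with no filter 1, LPL, was called with lactoferrin against control (-3.56, adjusted p = 0.00305, edgeR) and with both agents against control (-4.49, adjusted p = 3.92e-05, edgeR), where 29 of its 30 control counts came from control replicate 1. Over all alternatives the adjusted p of LPL ran from 0.00305 to 1 and from 3.92e-05 to 1. The cause was not tested. Replicate numbers did not pair the libraries: of 18 same-numbered pairs, 2 had a correlation of deviations over 0.1 (-0.216 to 0.118), and 3 of 12 libraries correlated best with their own number. The replicate block changed no call of the 8 genes. Depth limits LPL outside the methotrexate libraries, where a library held 0 to 29 counts.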
